A study of Mus musculus with 4 samples.

Results

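Chemokine ligands are small secreted or membrane-held proteins that draw leukocytes along a gradient by binding G protein-coupled receptors. The ligands of the mouse were taken as every row of the feature table whose symbol starts with Ccl, Cxcl, Cx3cl or Xcl followed by a digit, with 2 symbols left out by the rule. This gave 42 of the 31053 rows, which carry 37 symbols because several ligand genes have more than 1 copy in the assembly. At least 1 transcript was counted for 30 of the 42, and 22 had 100 or more.

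In the inflamed lung, ligands of CXCR2 recruit neutrophils, ligands of CCR2 recruit monocytes, and the interferon-induced ligands of CXCR3 recruit T and natural killer (NK) cells. Ligands of CCR4 and CCR8 attract type 2 helper and regulatory T cells and belong to the allergic response. Macrophages, dendritic cells (DCs) and lymphocytes are known sources of different ligands, so that the cells present decide much of what a tissue can send.

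The samples were live, 7-AAD-negative CD45.2+ cells sorted from the lungs of male C57BL/6 mice aged 5 to 10 weeks. All mice carried floxed Ift20 (Ift20 f/f), with loxP sites in introns 1 and 3. WT mice had no Cre, and KO mice carried CD4 cre, which is active in developing thymocytes and therefore acts in CD8 as well as CD4 T cells. Papain, a cysteine protease that acts as an inhaled allergen, was given into the nose at 25 µg on 3 consecutive days, with a challenge on day 14 and collection on day 15, and the other mice were given DPBS, a buffered saline. The design therefore compared papain with DPBS in each genotype, and KO with WT in each treatment. Each of the 4 groups, DPBS WT, DPBS KO, Papain WT and also Papain KO, was 1 droplet library (10x Genomics 3′ v3), and neither the labels nor the methods give the number of mice in it. No difference could thus be set against a spread between mice, and no test between groups was made.

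The 22 members with at least 100 transcripts lay mainly in clusters of neighbouring genes. On the GRCm38 assembly, 12 of the 42 rows were on chromosome 11 between 70453983 and 83664683, among them Ccl2, Ccl7, Ccl12, Ccl1, Ccl5, Ccl9, Ccl6, Ccl3 and Ccl4. A further 9 were on chromosome 5, among them Cxcl3 (90786103 to 90789600), Cxcl1 (90891241 to 90893115), Cxcl2 (90903871 to 90905938), all on the plus strand, and Cxcl10 (92346638 to 92348889, minus strand). Ccl22 lay on chromosome 8 (94745590 to 94751699, plus strand).

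The promoters of Cxcl1, Cxcl2, Cxcl3 and Cxcl10 are shown because all 4 genes were called in classical monocyte-like cells below, and because theirs were the only member windows with 2 matches to a NF-kB motif, the binding site of the factor through which many innate signals act. The windows run from 250 bases before to 50 after the start of the gene (RefSeq, GRCm38.p6), read 5′ to 3′ on the strand of the gene, and capitals mark the matches.
Cxcl1, chr5:90890995-90891294, plus strand: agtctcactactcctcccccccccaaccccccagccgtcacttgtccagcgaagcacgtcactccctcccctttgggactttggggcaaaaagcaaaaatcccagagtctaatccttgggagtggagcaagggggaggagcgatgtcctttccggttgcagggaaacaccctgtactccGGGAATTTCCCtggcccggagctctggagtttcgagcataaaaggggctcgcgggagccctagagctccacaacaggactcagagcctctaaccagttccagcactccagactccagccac
Cxcl2, chr5:90903649-90903948, plus strand: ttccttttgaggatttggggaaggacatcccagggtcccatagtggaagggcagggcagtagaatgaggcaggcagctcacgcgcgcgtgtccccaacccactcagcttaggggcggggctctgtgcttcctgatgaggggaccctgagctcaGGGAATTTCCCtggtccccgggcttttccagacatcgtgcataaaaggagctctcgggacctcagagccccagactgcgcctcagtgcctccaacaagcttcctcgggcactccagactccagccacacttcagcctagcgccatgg
Cxcl3, chr5:90785851-90786150, plus strand: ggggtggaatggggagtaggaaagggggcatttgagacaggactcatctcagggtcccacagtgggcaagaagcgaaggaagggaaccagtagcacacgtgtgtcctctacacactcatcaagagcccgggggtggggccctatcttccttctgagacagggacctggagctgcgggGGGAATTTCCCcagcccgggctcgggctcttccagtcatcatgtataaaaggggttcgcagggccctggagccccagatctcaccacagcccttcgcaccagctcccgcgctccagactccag
Cxcl10, chr5:92348840-92349139, minus strand: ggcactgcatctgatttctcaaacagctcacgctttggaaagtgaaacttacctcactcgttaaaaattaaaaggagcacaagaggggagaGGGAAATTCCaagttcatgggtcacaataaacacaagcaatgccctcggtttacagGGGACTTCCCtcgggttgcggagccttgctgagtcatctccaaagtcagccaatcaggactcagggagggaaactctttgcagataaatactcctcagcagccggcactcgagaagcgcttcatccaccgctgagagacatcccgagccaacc

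In Cxcl1, Cxcl2 and Cxcl3 the capitals covered a pair of overlapping matches, GGGAATTTCC and GGAATTTCCC, at 71 to 61, 97 to 87 and 73 to 63 bases before the start. Cxcl10 had 2 separate matches, GGGAAATTCC at 159 to 150 and GGGACTTCCC at 103 to 94 bases before the start. The promoter table held a window for 26 of the 37 symbols and for 17 of the 22 members with at least 100 transcripts, and for none of Ccl2, Ccl4, Ccl5, Ccl7 and Cxcl16. The NF-kB motif was found in 6 of these 17 (Ccl27a, Ccl9, Cxcl1, Cxcl10, Cxcl2 and Cxcl3) and in 4.51% of 32851 windows of all genes. Cxcl9, also called in classical monocyte-like cells, lacked it, and Ccl9, which had it, was not called there. The 4 windows shown were chosen by their calls and matches, and a link between motif and call was not tested. TGANTCA, the AP-1 motif, was found in 4 of the 17 (Ccl27a, Ccl9, Cxcl10 and Cxcl9) and in 7.81% of all windows. The interferon regulatory factor (IRF) motif was found in 2 (Cxcl10 and Cxcl14) and in 3.44% of all windows. The STAT6 motif was in none of the 17 and in 6.95% of all windows. These motifs were searched on both strands, and a match describes letters, not binding.

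The libraries held 5863 to 8552 barcodes and 53854420 to 75675956 unique molecular identifiers (UMIs), each standing for 1 captured transcript, and 5421 to 7559 cells per library were kept (25831 in all). A 3′ library counts molecules by their tail, so that counts are not divided by gene length. Levels are CPM, a gene's UMIs for every 1000000 UMIs counted in the same cells, and where 4 values follow each other they stand for DPBS WT and DPBS KO and then for Papain WT and Papain KO. Ranges in parentheses are 95% intervals that cover counting error only. Cells fell into 22 classes, 16 of them named with the ending -like from marker genes and 6 left unnamed (1391 cells, 5.39%) and given by their leading genes, and differences from the study may come from these rebuilt names. The members were kept out of the genes used for clustering. Ift20 in CD4 T-like cells, read from a tag outside the deleted part and so no check of the deletion, stood at 59.4, 20.6, 58.7 and 18.3 CPM. Of the barcodes kept, 118 were shared between libraries, and they are taken as separate cells.

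Together the members made up 0.366%, 0.372%, 0.361% and 0.303% of the UMIs of the 4 libraries. Ccl6, Cxcl2 and Ccl5 alone held 81.3% to 86.4% of that sum. Alveolar macrophage-like (AM-like) cells were the largest source of 12 of the 22 members, interstitial macrophage-like (IM-like) cells of 4 (Cxcl13, Cxcl16, Ccl7 and Ccl12), and classical monocyte-like cells of 2 (Ccl2 and Ccl9). CD8 T-like cells were the largest source of Ccl5 (31.5%), NK-like cells of Xcl1 (45.9%), type 2 innate lymphoid (ILC2)-like cells of Ccl1 (65.2%) and mature DC-like cells of Ccl22 (66.6%). These ranks pool the 4 libraries, and single libraries differed. AM-like cells held the most Ccl9 in both DPBS libraries, the most Ccl2 and Cxcl16 in DPBS WT and the most Ccl12 in both KO libraries, CD4 T-like cells held the most Ccl1 in Papain WT, and the most Ccl4 lay in IM-like cells of Papain WT and in NK-like cells of Papain KO. The plot of levels by class gives the whole pattern.

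**Figure D1:**
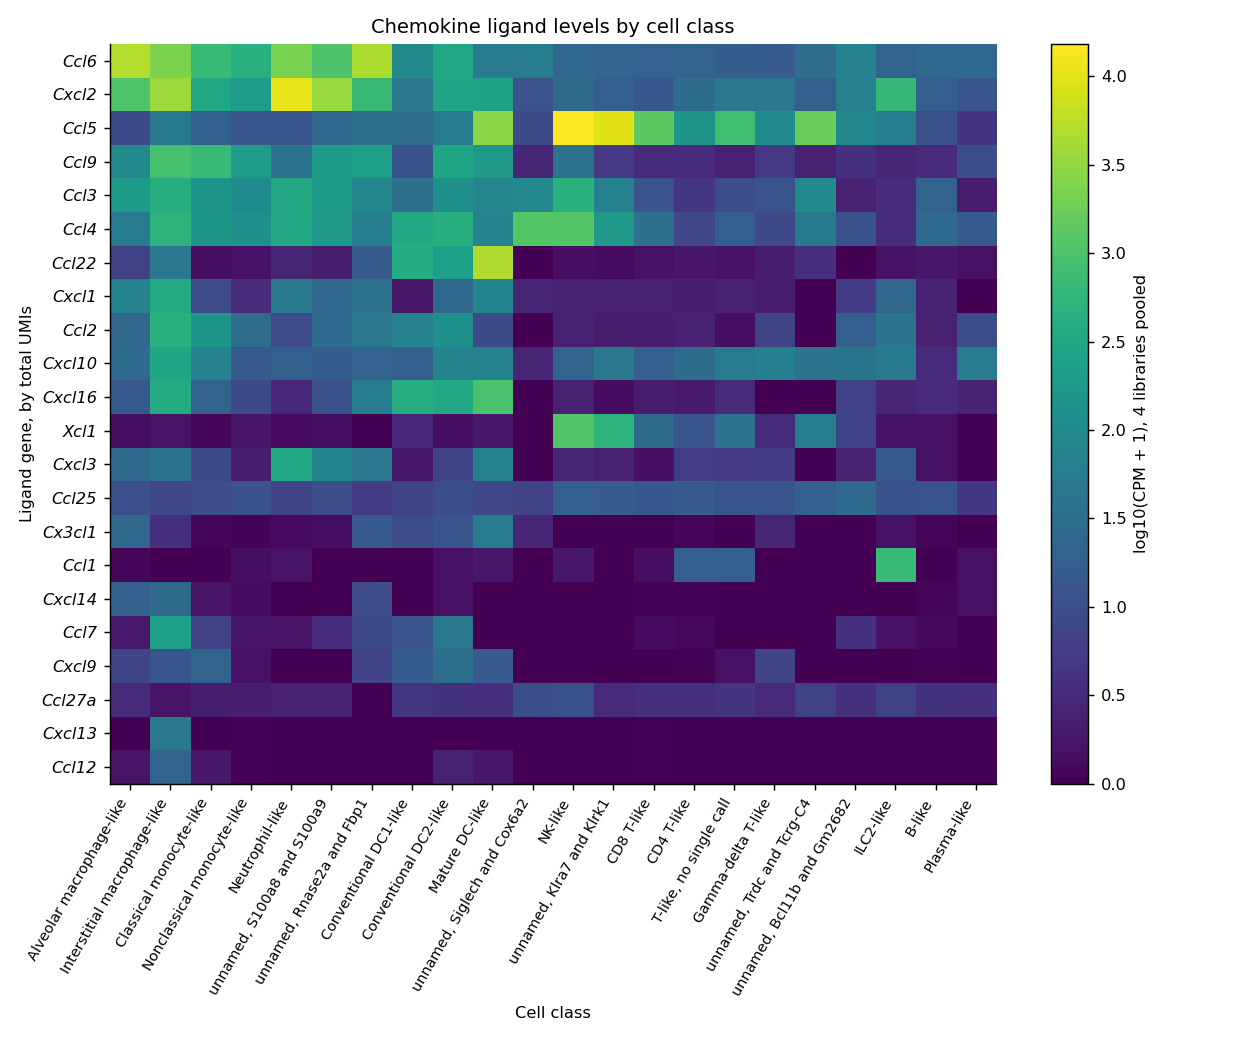
Level of each member with at least 100 UMIs (rows) in each cell class (columns), as log10 of CPM plus 1 over the 4 libraries pooled (colour scale). Ccl6 was bright in alveolar macrophage-like cells, Cxcl2 in neutrophil-like cells, Ccl5 in NK-like cells, Ccl22 in mature DC-like cells and Ccl1 in ILC2-like cells, whereas Ccl25 and Ccl27a were at a like low level in nearly every class. Cxcl13 showed only in interstitial macrophage-like cells, which held 98.2% of its UMIs.

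Among the neutrophil attractants, which bind CXCR2, Cxcl2 was the most abundant. Over all kept cells it stood at 645 (639 to 651), 514 (508 to 520.1), 746 (739.8 to 753) and 687 (679.7 to 694) CPM, and 53.6% of its UMIs lay in AM-like, 21.1% in neutrophil-like and 10.99% in IM-like cells. Within neutrophil-like cells its level was 12261, 9920.1, 11039.7 and 10911 CPM, the highest of any class, and in IM-like cells 3843, 5258, 2874 and 4352 CPM. Cxcl1 stood at 37.6 (36.1 to 39.1), 18.9 (17.7 to 20.1), 37.9 (36.4 to 39.4) and 42.01 (40.2 to 43.9) CPM, low in DPBS KO alone, and came from AM-like (69.4%) and IM-like cells (20.6%). Cxcl3 stood at 14.6 (13.7 to 15.6), 12.02 (11.1 to 12.999), 21.7 (20.6 to 22.9) and 13.7 (12.7 to 14.7) CPM, highest in Papain WT, with 51.3% of its UMIs in AM-like and 24.2% in neutrophil-like cells.

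Ccl6 and Ccl9 are rodent ligands of CCR1, the receptor by which macrophages and granulocytes respond to several CC chemokines. Ccl6 was the most abundant member at 2063 (2052 to 2074), 2298 (2284 to 2311), 1765 (1754 to 1775) and 1146 (1137 to 1156) CPM, and the value in Papain KO lay below the other 3. Its level inside AM-like cells was 4732, 4751, 6042 and 4221 CPM, a narrower range. Ccl9 stood at 84.9 (82.7 to 87.2), 121 (118 to 124), 148 (145 to 151) and 119 (116 to 123) CPM, lowest in DPBS WT, with 39.2% of its UMIs in classical monocyte-like, 28.3% in AM-like and 15.4% in IM-like cells.

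Ccl3, Ccl4 and Ccl5 are inflammatory CC chemokines that draw T cells, monocytes and macrophages. Ccl3 stood at 121 (118 to 124), 116 (113 to 119), 89.8 (87.5 to 92.1) and 91.2 (88.6 to 93.9) CPM, somewhat lower in both papain libraries, and 58.9% of it came from AM-like cells. Ccl4 stood at 84.1 (81.9 to 86.4), 68.9 (66.7 to 71.2), 102 (99.7 to 105) and 92.1 (89.5 to 94.8) CPM and was spread most widely of the 3, with 20.2% in AM-like cells, 13.1% in classical monocyte-like cells and 12.1% in NK-like cells. Ccl5 stood at 453 (448 to 458), 389 (384 to 395), 433 (428 to 438) and 629 (622 to 636) CPM, highest in Papain KO. It was a lymphocyte product here, with 31.5% in CD8 T-like cells, 29.7% in NK-like cells and 25.0% in the unnamed Klra7 and Klrk1 class. Within NK-like cells it reached 14365, 13083, 16592 and 17279 CPM.

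The monocyte attractants Ccl2, Ccl7 and Ccl12 are ligands of CCR2. Ccl2 stood at 25.1 (23.9 to 26.3), 27.99 (26.6 to 29.5), 40.5 (38.998 to 42.1) and 40.9 (39.2 to 42.8) CPM, higher in both papain libraries than in either DPBS library, and came from classical monocyte-like (33.2%), IM-like (26.0%) and AM-like cells (22.4%). Ccl7 stood at 4.19 (3.71 to 4.71), 5.74 (5.104 to 6.43), 6.14 (5.55 to 6.77) and 11.6 (10.7 to 12.6) CPM, highest in Papain KO, and 69.5% of its UMIs were in IM-like cells. Ccl12 was scarce, at 0.495 (0.341 to 0.696), 0.522 (0.344 to 0.759), 1.496 (1.21 to 1.82) and 0.345 (0.201 to 0.552) CPM, and its 33, 27, 98 and 17 UMIs lay mostly in IM-like (55.4%) and AM-like cells (29.1%).

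Cxcl9 and Cxcl10 are induced by interferons and bind CXCR3. Cxcl10 stood at 19.9 (18.8 to 20.96), 24.01 (22.7 to 25.4), 41.1 (39.6 to 42.7) and 44.6 (42.7 to 46.5) CPM, higher in both papain libraries, with 28.8% of its UMIs in AM-like, 17.3% in IM-like and 15.8% in classical monocyte-like cells. Cxcl9 stood at 2.22 (1.88 to 2.61), 3.73 (3.22 to 4.29), 10.9 (10.1 to 11.7) and 1.48 (1.16 to 1.86) CPM, and Papain WT was high while Papain KO was the lowest of the 4. These UMIs lay in 60, 63, 72 and 28 cells, and the richest 8, 2, 3 and 5 of them held at least 50% of the UMIs of their library.

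Ccl1, the ligand of CCR8, and Ccl22, a ligand of CCR4, address T cells of the type 2 and regulatory kinds. Ccl1 stood at 3.33 (2.91 to 3.8004), 4.93 (4.34 to 5.57), 12.04 (11.2 to 12.9) and 8.82 (8.01 to 9.69) CPM, higher in both papain libraries, and came from ILC2-like (65.2%) and CD4 T-like cells (27.9%). Ccl22 stood at 23.9 (22.7 to 25.1), 31.1 (29.6 to 32.6), 60.6 (58.8 to 62.5) and 22.9 (21.6 to 24.3) CPM, and Papain WT was above the other 3. Mature DC-like cells, DCs that have taken up antigen and are ready to migrate, held 66.6% of its UMIs, conventional DC2-like cells 13.4% and conventional DC1-like cells 10.6%.

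The membrane-held ligands are Cx3cl1, which binds CX3CR1 on monocytes, and Cxcl16, which binds CXCR6 on T cells and innate lymphoid cells. Cx3cl1 stood at 10.8 (10.1 to 11.7), 14.7 (13.7 to 15.8), 6.01 (5.43 to 6.64) and 5.23 (4.61 to 5.91) CPM, lower in both papain libraries than in both DPBS libraries. Cxcl16 stood at 18.7 (17.6 to 19.7), 26.5 (25.1 to 27.97), 47.5 (45.8 to 49.2) and 25.9 (24.5 to 27.4) CPM, highest in Papain WT, with 23.7% of its UMIs in IM-like, 21.9% in conventional DC2-like and 15.8% in mature DC-like cells.

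Of the other members, Xcl1, which binds XCR1 on conventional DC1, stood at 24.4 (23.3 to 25.7), 19.1 (17.95 to 20.4), 19.996 (18.9 to 21.1) and 25.4 (23.98 to 26.8) CPM and came from NK-like cells (45.9%), the Klra7 and Klrk1 class (27.9%) and CD8 T-like cells (13.6%). Cxcl14 stood at 8.29 (7.61 to 9.01), 9.16 (8.35 to 10.02), 4.67 (4.16 to 5.22) and 4.93 (4.33 to 5.59) CPM, lower in both papain libraries. Cxcl13, which draws B cells through CXCR5, had 84, 40, 92 and 1 UMIs in 2, 1, 5 and 1 cells. Ccl25, known for homing to the gut, stood at 10.2, 10.8, 10.4 and 12.1 CPM and Ccl27a, known for homing to the skin, at 2.37, 2.59, 2.43 and 2.78 CPM, and both lay thinly over nearly all classes with at most 4 and 3 UMIs in a cell. Ccl27a overlaps Il11ra1, Ccl25 Elavl1, Ccl6 E230016K23Rik, Cxcl10 Art3, Cxcl16 Zmynd15, Ccl2 Gm17268 and Xcl1 Gm20743, each on the other strand, and whether counting used the strand is not given in the sources used here.

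**Figure D2:**
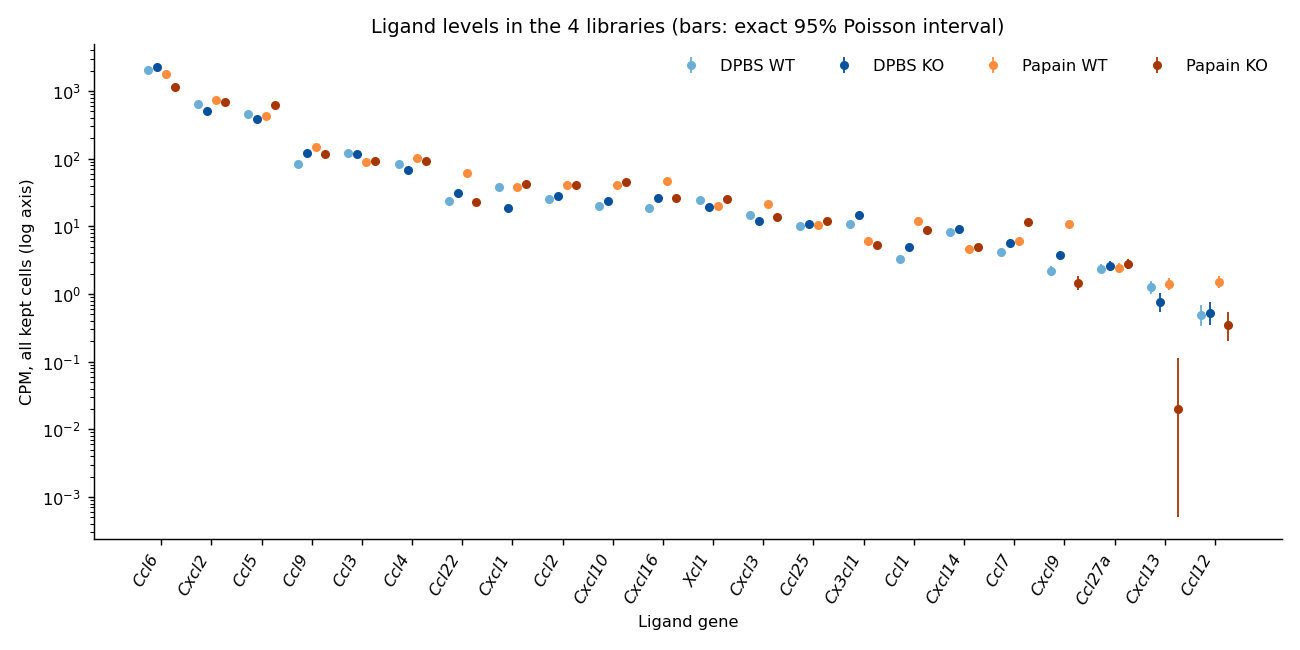
Level of each member with at least 100 UMIs in the 4 libraries (CPM over all kept cells, log axis), with bars for the 95% Poisson interval, which covers counting error only. Ccl6 lay highest at 1146 to 2298 CPM and Cxcl13 and Ccl12 lowest, and the Papain KO point of Cxcl13 stands for 1 UMI.

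The 8 members with 1 to 99 UMIs were Ccl8 (24), Cxcl15 (16), Cxcl5 (15), Cxcl12 (13), Ccl28 (5), Ccl11 (3), Ccl20 (3) and Cxcl17 (3). Ccl8, a further monocyte attractant, had 1, 0, 23 and 0 UMIs, 13 of them in 1 cell and 14 in AM-like cells. Cxcl5, which attracts neutrophils, had 0, 0, 14 and 1 UMIs, 9 of them in CD4 T-like cells with 7 in 1 cell. Of the 16 UMIs of Cxcl15, a lung epithelial neutrophil attractant, 12 lay in AM-like cells. Cxcl12, the homeostatic ligand of CXCR4, had 7, 2, 4 and 0 UMIs in 11 cells. Ccl20, the ligand of CCR6, had its 3 UMIs in gamma-delta T-like cells of the papain libraries, a class whose name is uncertain. The other 12 rows, the copies of Ccl19, Ccl21 and Ccl27, Ccl27b and Ccl26, had 0 UMIs, and a sort for CD45.2 leaves out the stromal, lymphatic and epithelial cells that are known to make several of these ligands. A count of 0 allows up to 0.0450 CPM in DPBS WT and up to 0.0608 CPM in Papain KO.

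The first comparison asked how the ligands differed between papain and DPBS in WT mice. A member is called here where its CPM differed at least 2-fold, the interval of the ratio excluded 0 on the log2 scale, and the 2 libraries held at least 30 UMIs of it. Over all kept cells 6 of the 22 members tested were called higher, against 4.17% of all genes tested, and 0 were called lower, against 1.61%. Cxcl9 had a log2 ratio of 2.29 (2.04 to 2.56), Ccl1 of 1.85 (1.64 to 2.08), Ccl12 of 1.59 (1.01 to 2.21), Cxcl16 of 1.35 (1.25 to 1.44), Ccl22 of 1.34 (1.26 to 1.43) and Cxcl10 of 1.05 (0.96 to 1.15). The median log2 ratio was 0.25 over the members tested and -0.02 over all genes. A gene could pass the minimum of 30 UMIs through 1 library alone, so these counts are a description.

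Cell classes also differed in size between these libraries, and a ratio over all cells mixes class sizes with levels inside a class. Class levels were therefore also weighted by mean class shares, the share of UMIs in a class averaged over both libraries of the contrast. With these weights Ccl22 was at -0.01 in WT mice, Cxcl16 at 0.48, Cxcl10 at 0.75 and Ccl12 at 0.87, none of them called. Cxcl9 at 2.25 and Ccl1 at 1.14 still were. Calls with mean class shares, here and below, used the interval of the unweighted ratio moved to the weighted value, not an interval of their own. Mature DC-like cells were 0.22% of DPBS WT and 0.63% of Papain WT, and IM-like cells were 0.61% and 1.97%. Inside mature DC-like cells, too few (17, 12, 47 and 10) to be compared, Ccl22 stood at 5641, 5162, 4470.2 and 4676 CPM and Cxcl16 at 1014, 1106, 948 and 840.1 CPM, and both lay lower in Papain WT than in DPBS WT.

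In KO mice, papain against DPBS gave 2 members called higher (2.86% of all genes) and 4 called lower (2.73%). The higher members were Cxcl1 at 1.15 (1.04 to 1.27) and Ccl7 at 1.02 (0.82 to 1.23). The lower members were Cxcl13 at -5.25 (-10.59 to -2.69), Cx3cl1 at -1.49 (-1.704 to -1.29), Cxcl9 at -1.33 (-1.74 to -0.94) and Ccl6 at -1.003 (-1.02 to -0.99). The 2 contrasts share no library, and the difference between them in Cxcl9 was -3.63 (-4.09 to -3.16) for KO minus WT on the log2 scale. That interval takes UMIs as independent, but 208 of 714 Cxcl9 UMIs of Papain WT and 74 of 193 of DPBS KO lay in 1 cell each. With the richest cell of each library left out, the KO ratios of Cxcl9 and Cxcl13 were not called. All 40 Cxcl13 UMIs of DPBS KO lay in 1 cell. AM-like cells, the largest source of Ccl6 and Cx3cl1, were 21.6% of DPBS KO and 9.88% of Papain KO. With mean class shares Ccl6 was at -0.16, Cx3cl1 at -0.60, Ccl7 at -0.20 and Cxcl9 at -0.99, not called, while Cxcl1 at 1.501 and Cxcl13 at -5.62 still were. The medians were 0.13 over the members and -0.02 over all genes.

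The next comparison set KO against WT. In DPBS 0 members were called higher (0.867% of all genes) and 0 lower (1.01%), and Cxcl1 was nearest at -0.99 (-1.102 to -0.89). In papain 0 were called higher (1.08%) and 4 lower (1.76%), namely Cxcl13 at -6.11 (-11.43 to -3.5998), Cxcl9 at -2.88 (-3.25 to -2.53), Ccl12 at -2.12 (-2.95 to -1.37) and Ccl22 at -1.403 (-1.499 to -1.31). Mature DC-like cells were 0.63% of Papain WT and 0.18% of Papain KO, and with mean class shares Ccl22 was at -0.21, not called. Cxcl9 at -2.70, Ccl12 at -1.90 and Cxcl13 at -5.93 were still called. In Papain WT, 36 of the 98 Ccl12 UMIs and 60 of the 92 Cxcl13 UMIs lay in 1 cell each, so few cells carry these ratios. With the richest cell of each library left out, the same 4 members were called. Medians were 0.14 over the members and 0.01 over all genes in DPBS, and -0.13 and -0.03 in papain. Both genotype contrasts share their libraries with the papain contrasts, so the 4 sets of ratios are not independent of each other.

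**Figure D3:**
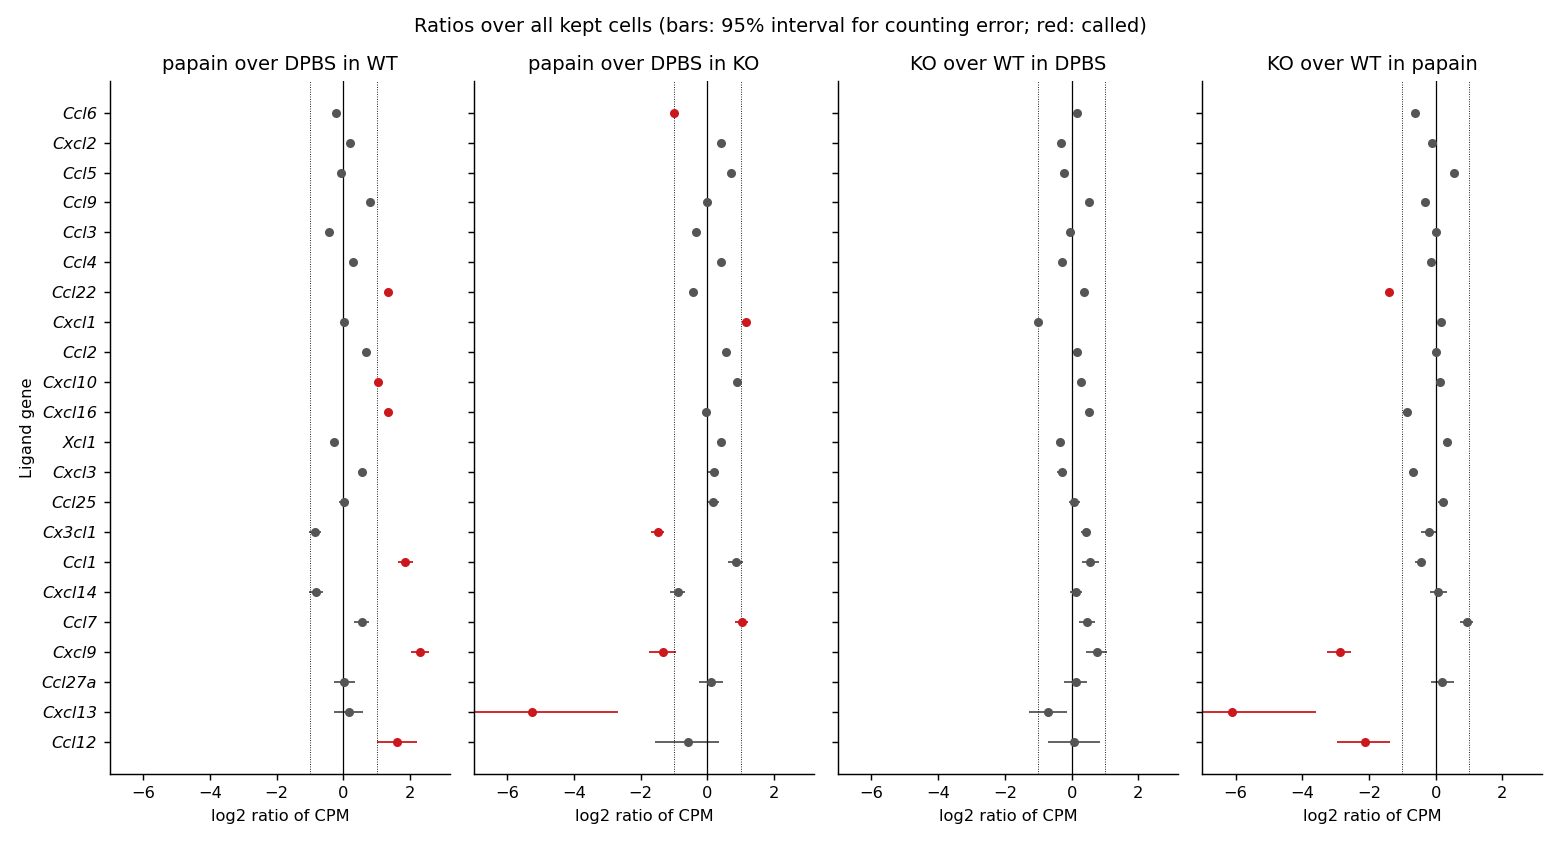
Log2 ratio of CPM over all kept cells for each member with at least 100 UMIs in the 4 contrasts (papain over DPBS in WT and in KO, KO over WT in DPBS and in papain), with 95% intervals for counting error only; the line at 0 marks equal levels, dotted lines mark 2-fold, and red points are called. Papain over DPBS in WT held 6 called members, all higher, and KO over WT in papain held 4, all lower; the intervals of Cxcl13 for papain in KO and for KO over WT in papain run past the left edge of the axis.

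The members were then compared within each class that had at least 20 cells in every library. In AM-like cells 3 of 19 members tested were called for papain over DPBS in WT (3.17% of all genes tested in that class), 2 of 17 in KO (2.53%), 1 of 17 for KO over WT in DPBS (1.31%) and 2 of 18 in papain (2.11%). In each library the AM-like cluster led by Gdf15 and Gpnmb held most of these cells (56.6% to 67.3%). Cxcl1, at 74.9, 31.5, 99.1 and 113 CPM, was low in DPBS KO, with a log2 ratio of -1.25 (-1.37 to -1.13) to DPBS WT, and higher with papain in KO at 1.84 (1.71 to 1.98). The UMIs lay in 164 cells of DPBS KO and 109 of Papain KO, with up to 210 in a cell. Cxcl10, at 20.5, 17.5, 34.3 and 58.6 CPM, was higher with papain in KO at 1.74 (1.56 to 1.93) and at 0.74 (0.57 to 0.91), not called, in WT. In the smaller AM-like cluster led by Car4 and Fabp1 the WT ratio of Cxcl10 was called lower at -1.62, from 72 UMIs to 11, beside 1.14, called higher, in KO.

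Ccl7 in AM-like cells had 13, 8, 52 and 6 UMIs and was higher with papain in WT (2.81 (1.91 to 3.81)) and lower in Papain KO than Papain WT (-2.59 (-4.099 to -1.37)). Cxcl9 had 82, 82, 291 and 39 UMIs there, higher with papain in WT (2.64 (2.28 to 3.01)) and lower in KO than WT after papain (-2.37 (-2.89 to -1.89)). However, 1 cell of Papain WT held 208 of the 291, and without the cell with the most UMIs in each library the WT ratio was 0.92, not called. Ccl12 was called higher with papain in WT at 1.28 (0.17 to 2.43). Ccl6 had ratios of 0.35 in WT and -0.17 in KO with papain, Cx3cl1, at 25.03, 30.7, 20.1 and 20.6 CPM, of -0.32 and -0.57, and Cxcl2 of 0.23 and 0.84, none of them called. Inside the Gdf15 and Gpnmb cluster the KO ratio of Cxcl2, 1.098, was called. AM-like cells were 18.7%, 21.6%, 11.9% and 9.88% of the kept cells, beside which the lower Ccl6 and Cx3cl1 over all cells in papain stand.

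IM-like cells, few in number (46, 29, 146 and 74) and parted from DC2-like cells only by a second clustering of 549 cells, had calls in 6 of 17 members with papain in WT (6.33% of all genes), 7 of 15 in KO (5.24%), 3 of 12 for KO over WT in DPBS (4.02%) and 6 of 17 in papain (4.77%). The cells were not alike across libraries, since the IM-like sub-cluster led by Retnla and C1qa held 17, 10, 87 and 14 of them, summed AM markers stood at 567, 834, 9341 and 835 CPM, and summed interstitial macrophage markers fell from 6426 CPM in DPBS WT to 4082 in Papain WT. The part of these differences in the ratios that follow was not tested. Ccl22, absent but for 1 UMI in each DPBS library, had 161 UMIs in Papain WT, in 20 cells, and 44 in Papain KO. Its log2 ratio with papain was 5.87 (3.37 to 11.18) for WT mice, 3.98 (1.43 to 9.32) for KO mice, and that of KO to WT in papain was -1.17 (-1.69 to -0.68). Ccl5 was higher with papain in both genotypes (1.72 in WT, 1.399 in KO). Ccl6 was higher in WT at 1.098, and Cxcl1 and Cxcl3 were higher in KO at 1.38 and 1.25. Ccl4 and Ccl3 were lower with papain in KO at -1.64 and -1.06.

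Ccl7 stood at 285, 427, 121 and 332 CPM in IM-like cells, lower with papain in WT (-1.24 (-1.51 to -0.97)) and higher in KO than WT after papain (1.46 (1.23 to 1.69)). Between genotypes after papain, Cxcl14 was higher in KO at 1.38, and Ccl12 and Ccl4 were lower at -2.904 and -1.27. In DPBS, Cxcl10 (2.097 (1.79 to 2.41)) and Cxcl14 (1.24) were higher in KO and Cxcl1 (-1.001) was lower. Cxcl9 had 0 UMIs in DPBS WT and 41 in Papain WT, at least 4.95-fold higher, with 32 of them in 1 cell. Cxcl13 had 84, 40, 89 and 0 UMIs. It was called lower with papain in WT (-1.38), at least 37.1-fold lower in Papain KO than in DPBS KO and at least 18.3-fold lower than in Papain WT. These UMIs lay in 2, 1, 2 and 0 cells, and without the cell with the most UMIs the WT ratio turned to 0.36.

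**Figure D4:**
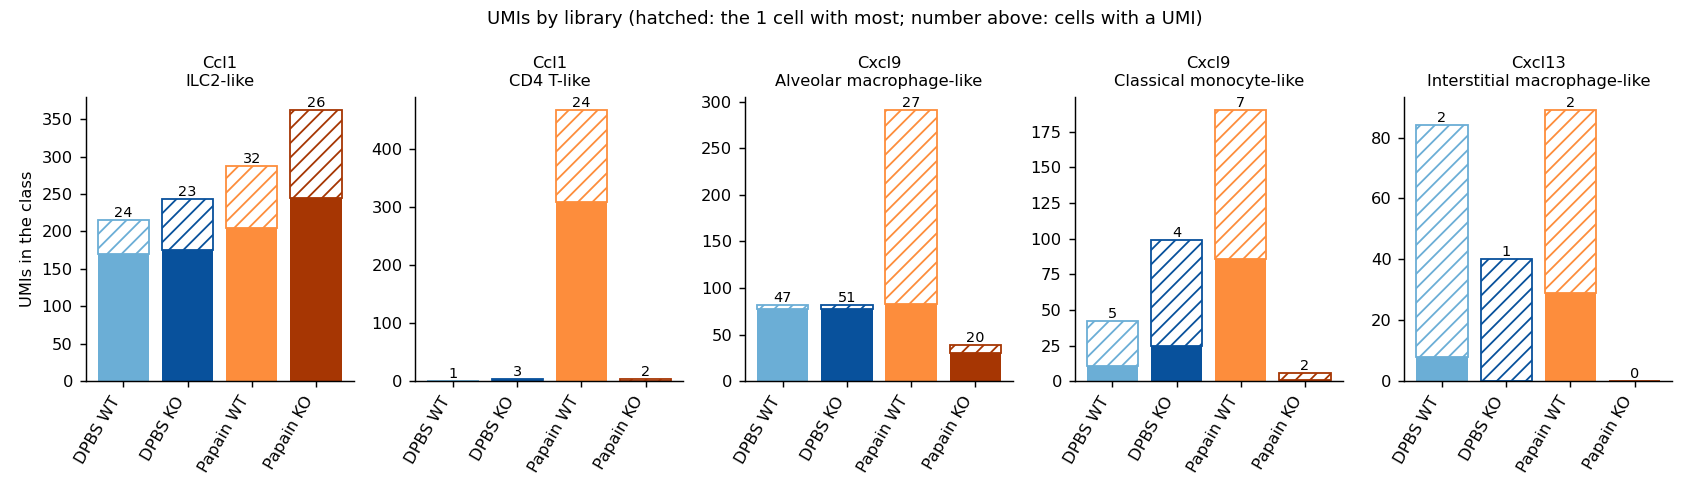
UMIs of 5 member and class pairs in the 4 libraries (bars, from 0), with the part that the cell with the most UMIs holds hatched and the number of cells with a UMI written above. For Ccl1 in ILC2-like cells the UMIs were shared by 23 to 32 cells of a library, whereas 208 of the 291 UMIs of Cxcl9 in alveolar macrophage-like cells of Papain WT lay in 1 cell.

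In classical monocyte-like cells 5 of 13 members were called with papain in WT (2.86%), 4 of 14 in KO (1.76%), 4 of 13 for KO over WT in DPBS (3.76%) and 4 of 14 in papain (2.67%). Cxcl10, at 24.5, 25.6, 115 and 97.7 CPM, was higher with papain in both genotypes (2.23 in WT and 1.93 in KO), and 1 cell held 297 of the 648 UMIs of Papain WT and 1 held 228 of the 348 of Papain KO. Cxcl3, at 1.29, 3.46, 13.6 and 8.42 CPM, was also higher in both (3.4003 (2.12 to 5.06) and 1.28 (0.28 to 2.39)). Cxcl2, at 158, 360.2, 436 and 255 CPM, was higher in WT at 1.46 (1.33 to 1.59) and at -0.50, not called, in KO. These 3 ligands were among the 5 members called higher with papain in WT, and Cxcl10 and Cxcl3 were called higher in KO as well.

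Cxcl1 and Cxcl9 in classical monocyte-like cells differed by genotype. Cxcl1 had 14, 59, 53 and 11 UMIs, higher with papain in WT (1.38) and lower in KO (-2.46), higher in KO than WT in DPBS (2.23) and lower in papain (-1.603). Cxcl9 had 42, 99, 190 and 6 UMIs, 74 of the 99 in DPBS KO from 1 cell, with the same 4 directions (1.63, -4.08, 1.39 and -4.32). Ccl7 was higher in KO in DPBS and in papain (1.45 and 1.83), as was Cxcl2 in DPBS (1.18) and Ccl5 in papain (1.49). Ccl2, at 108, 132, 184 and 189 CPM, was not called in any contrast.

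Nonclassical monocyte-like cells, which patrol vessels, had 1 of 10 members called with papain in WT (1.55%), 2 of 8 in KO (1.5%), 1 of 9 for KO over WT in DPBS (2.21%) and 1 of 10 in papain (1.11%). These were Cxcl10 in WT (1.16), Ccl4 and Ccl2 in KO (1.49 and 1.25), Ccl5 between genotypes in DPBS (-2.11) and Ccl2 in papain (1.48).

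Neutrophil-like cells were 1.57% of DPBS WT and 4.80% of Papain WT, and 2.01% of DPBS KO and 4.24% of Papain KO. They had 3 of 8 members called in WT (4.04%), 1 of 7 in KO (3.01%), 2 of 7 for KO over WT in DPBS (2.88%) and 2 of 7 in papain (3.69%). The most abundant member, Cxcl2, had papain ratios of -0.15 (-0.20 to -0.11) for WT mice and 0.14 (0.08 to 0.19) for KO mice, and of -0.31 and -0.02 for KO over WT, none called. Ccl4, at 527, 200.1, 184 and 523 CPM, was lower with papain in WT (-1.52 (-1.79 to -1.25)) and higher in KO (1.38 (1.02 to 1.77)), lower in KO than WT in DPBS (-1.398) and higher in papain (1.51). These UMIs lay in 31, 21, 57 and 57 cells. Ccl3 and Cxcl10 were also lower with papain in WT (-1.31 and -1.85). Between genotypes, Ccl9 was higher in KO in DPBS (1.15) and Ccl3 in papain (1.21).

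Conventional DC1-like cells, 23 to 40 per library, had calls in 0 of 7 members with papain in WT (5.33%), 4 of 8 in KO (3.78%), 5 of 7 for KO over WT in DPBS (5.14%) and 3 of 8 in papain (3.93%). Ccl22, at 306, 805, 194 and 239 CPM, was high in DPBS KO (1.396 (1.11 to 1.69) against DPBS WT, -1.75 (-2.02 to -1.49) for papain in KO). With papain in KO, Ccl5 (2.62) and Cxcl2 (2.54) were higher and Ccl2 (-2.09) was lower. In DPBS, Cxcl2 (-3.61), Ccl4 (-1.28), Ccl3 (-1.24) and Ccl2 (-1.16) were lower in KO. In papain, Ccl5 was higher in KO at 4.49, with 47 of its 59 UMIs in 1 cell, and Ccl2 (-2.79) and Ccl3 (-1.26) were lower.

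Conventional DC2-like cells, which prime helper T cells, had calls in 6 of 13 members in WT (6.13%), 2 of 12 in KO (7.69%), 4 of 11 for KO over WT in DPBS (7.17%) and 5 of 14 in papain (4.77%). Ccl22 stood at 49.6 (36.7 to 65.5), 358 (317 to 402), 352 (326 to 380.5) and 115 (96.8 to 136) CPM, low in DPBS WT and high in DPBS KO and Papain WT. It was higher with papain in WT at 2.83 (2.41 to 3.28), from 49 UMIs in 15 cells to 644 in 42, and lower in KO at -1.64 (-1.94 to -1.34), where 136 of the 278 UMIs of DPBS KO lay in 1 cell and the ratio without the richest cell was -1.10. KO over WT was 2.85 (2.41 to 3.32) for the DPBS libraries, and -1.61 (-1.89 to -1.35) for the papain libraries. Ccl22 UMIs were found in 26.3%, 54.3%, 43.3% and 37.0% of these cells, and after each cell was thinned to 1000 UMIs in 5.53%, 17.1%, 15.6% and 8.04%. By both measures DPBS WT had the smallest share. The DC2-like sub-cluster led by Mgl2, Cd209a and Tnip3, with 4.69% of its cells positive for Cd3e, held 6 of 57, 18 of 46, 33 of 97 and 7 of 54 cells, and its part in these levels was not tested.

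Among the other members of DC2-like cells, Cxcl9 (3.11) and Cxcl1 (2.24) were higher with papain in WT, the former with 98 of 128 UMIs in 1 cell, and Ccl5 (-3.24), Ccl2 (-2.16) and Ccl3 (-1.23) were lower. Ccl5 was higher with papain in KO (3.63), but 126 of its 136 UMIs in Papain KO and 70 of its 92 in DPBS WT came from 1 cell each. A DC2-like sub-cluster in which 95.7% of cells had the T cell gene Cd3e held 15, 5, 11 and 15 cells, and its part in the Ccl5 ratios was not tested. In DPBS, Ccl7 (1.72) and Cxcl16 (1.03) were higher in KO and Ccl5 (-3.37) was lower. In papain, Ccl5 (3.51), Ccl2 (2.06) and Ccl3 (1.56) were higher in KO and Cxcl9 (-2.83) was lower.

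CD4 T-like cells, in which Ift20 was targeted, had 5 of 12 members called with papain in WT (5.36%), 3 of 8 in KO (2.82%), 3 of 9 for KO over WT in DPBS (4.32%) and 5 of 12 in papain (4.4%). Ccl1 had 1, 4, 467 and 3 UMIs. It was thus nearly confined to Papain WT in this class, with a log2 ratio to DPBS WT of 8.596 (6.11 to 13.90) and of Papain KO to Papain WT of -6.67 (-8.95 to -5.11). The 467 UMIs lay in 24 cells with at most 158 in a cell. Over the T sub-clusters, named CD4 or not, Papain WT had 278 Ccl1 UMIs in 4 cells of that led by Tnfrsf4, Foxp3, Ctla4 and Ikzf2, 189 in 18 cells of that led by Tnfsf11, Tnfsf8 and Gata3, and 7 in 5 cells of that led by Pclaf and Ube2c, in which Papain KO had 69 in 4 cells. The first of these sub-clusters had 50, 22, 129 and 38 cells and the second 101, 66, 246 and 87, and summed ILC2 markers in the CD4 T-like class stood at 171, 159, 721 and 236 CPM. The part of either in the Ccl1 ratios was not tested. In the sub-clusters led by Tnfsf11 and by Pclaf, which mixed Cd4 and Cd8 cells, each cell was named by its own Cd4 and Cd8 UMIs. The part of this naming in the ratios was not tested. For all T sub-clusters together the ratio of KO to WT in papain was -2.56, smaller than in the CD4 T-like class alone, and papain was higher than DPBS in both genotypes (8.87 in WT and 3.17 in KO). Cxcl3 had the same pattern, with 2, 1, 129 and 2 UMIs, a ratio of 5.74 (3.86 to 8.801) with papain in WT and of -5.399 (-8.46 to -3.52) for KO over WT in papain, in 18 cells of Papain WT with 67 UMIs in 1 of them.

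Cxcl2 in CD4 T-like cells had 108, 56, 542 and 116 UMIs and was higher with papain in WT (2.06 (1.76 to 2.37)), in 95 cells of DPBS WT and 156 of Papain WT, and lower in KO than WT after papain (-1.61 (-1.91 to -1.32)). In B-like cells, taken below as the measure of free RNA, Cxcl2 stood at 16.8 CPM, with papain ratios of -0.02 in WT and 0.04 in KO. The part of free RNA in the CD4 T-like counts was not tested. Cxcl10 (1.49) and Ccl9 (1.398) were also higher with papain in WT in CD4 T-like cells. Xcl1, at 13.8, 3.34, 16.9 and 8.11 CPM, was lower in KO than WT in both treatments (-2.05 in DPBS and -1.06 in papain) and higher with papain in KO (1.28). Ccl4 was likewise lower in KO in both (-1.48 and -1.51). Ccl5 was higher in KO in DPBS (1.68), where 431 of 1599 UMIs were in 1 cell, and lower with papain in KO (-1.74), as was Ccl6 (-1.27), whose level in this class was 25.5, 28.7, 18.7 and 11.8 CPM against 33.5, 33.1, 20.3 and 15.6 in B-like cells.

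CD8 T-like cells, in which CD4 cre also acts, had fewer calls: 2 of 9 members with papain in WT (2.63%), 0 of 10 in KO (1.89%), 1 of 9 for KO over WT in DPBS (2.0%) and 0 of 10 in papain (1.3%). Ccl4 (1.53) and Ccl3 (1.03) were higher with papain in WT, and Ccl4 was higher in KO in DPBS (1.15), with 74 of 206 UMIs in 1 cell. Ccl5, their main product at 891, 1499, 1705 and 1421 CPM, had ratios of 0.94 (0.89 to 0.98) with papain in WT, just short of a call, and -0.08 in KO. T-like cells that could be given neither the CD4 nor the CD8 name had 6 of 8 members called in WT (4.88%), 3 of 6 in KO (3.6%), 2 of 5 for KO over WT in DPBS (5.97%) and 4 of 9 in papain (4.94%). Xcl1 (2.16), Cxcl2 (1.91), Ccl3 (1.34) and Cxcl10 (1.21) were higher and Ccl5 (-1.33) and Ccl4 (-1.22) lower with papain in WT. In KO, Cxcl10 (1.31) was higher, and single cells held all 65 UMIs of Ccl1 (at least 18.3-fold higher than DPBS KO) and 113 of 133 of Cxcl2 (3.64). Between genotypes, Ccl4 (-1.57) and Cxcl10 (-1.05) were lower in KO in DPBS, and in papain Ccl1 (2.75) and Cxcl2 (1.699) were higher and Ccl3 (-3.27) and Xcl1 (-1.51) lower.

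ILC2-like cells, which are not T cells, had 1 of 3 members called in WT (5.66%), 1 of 5 in KO (3.53%), 1 of 4 for KO over WT in DPBS (3.58%) and 2 of 5 in papain (6.25%). Ccl1 stood at 673 (586 to 769.6), 854 (751 to 969), 499 (443 to 559.8) and 799 (719 to 885) CPM, with a papain ratio of -0.43 (-0.69 to -0.17) for WT mice and of -0.10 for KO mice, and a genotype ratio of 0.34 under DPBS and of 0.68 (0.45 to 0.91) under papain, none called. A Ccl1 UMI was found in 34.8%, 46.0%, 40.5% and 32.9% of these cells (21.3%, 24.0%, 19.8% and 18.7% thinned to 1000 UMIs), against none of the B-like cells in any library. The summed basophil and mast cell markers of this class moved from 191 and 21.0 CPM under DPBS to 6.93 and 885 CPM under papain, and their part in these values was not tested. Of the called members, Cxcl2 (1.09) was higher with papain in WT, Cxcl10 was higher in KO in both treatments (1.104 and 1.35), and Ccl2 was higher in Papain KO, at least 11.6-fold against DPBS KO and 6.13 against Papain WT, with 49 of 55 UMIs in 1 cell.

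**Figure D5:**
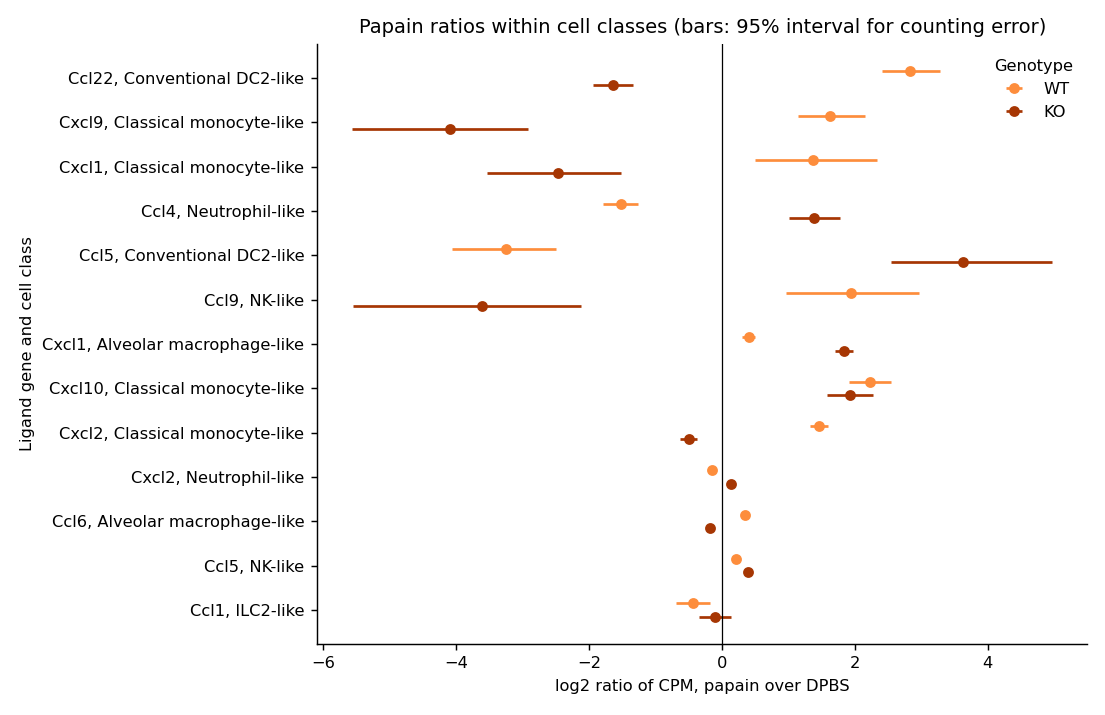
Log2 ratio of papain to DPBS in WT and in KO for 13 pairs of a member and a cell class, with 95% intervals for counting error only; the pairs were chosen after their values were seen. Cxcl2 in neutrophil-like cells lay near 0 in both genotypes (-0.15 and 0.14), while Ccl22 in conventional DC2-like cells and Ccl4 in neutrophil-like cells lay on opposite sides of 0.

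NK-like cells had 4 of 7 members called in WT (3.16%), 3 of 5 in KO (2.76%), 4 of 8 for KO over WT in DPBS (3.7%) and 0 of 4 in papain (2.99%). Their main products were not called, with papain ratios for Ccl5 of 0.21 in WT and 0.40 in KO and for Xcl1, at 1024, 1388, 1094 and 1038 CPM, of 0.10 and -0.42. Ccl4, at 1071, 524, 2194 and 1150.3 CPM, was higher with papain in both (1.04 and 1.13) and low in DPBS KO (-1.03). Ccl3 followed it in DPBS KO (-1.21 against WT, 1.53 for papain). In WT, Ccl9 (1.95, 21 of 23 UMIs in 1 cell) and Cxcl2 (1.35) were higher and Ccl6 (-1.797) was lower. Ccl9 was higher in KO in DPBS (2.205) and lower with papain in KO (-3.602), and Cxcl10 was higher in KO in DPBS (1.79).

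The unnamed Klra7 and Klrk1 class, rich in Ccl5 at 9554, 8098, 10160.3 and 10187 CPM, had 1 of 6 members called in WT (3.13%), 3 of 5 in KO (3.01%), 3 of 6 for KO over WT in DPBS (4.67%) and 2 of 7 in papain (2.21%). DPBS KO was low in Cxcl10, Ccl3 and Ccl4, with ratios to DPBS WT of -4.35, -3.48 and -2.64 and papain ratios in KO of 5.08, 4.32 and 2.298. Ccl3 was lower with papain in WT (-1.03), and Ccl3 and Cxcl10 were higher in KO in papain (1.87 and 1.23). The name of the gamma-delta T-like class, led by Il17a and Il17f, is uncertain. Trdc was found in 16.4% and Tcrg-C1 in 30.6% of its cells, and 105 of 219 had Cd4 without a Cd8 gene. The class had calls in 1 of 3 members in WT (6.05%), 0 of 2 in KO (6.77%), 2 of 2 for KO over WT in DPBS (4.02%) and 2 of 3 in papain (4.19%). These were Cxcl10 (-3.39, -2.14 and 1.22 in that order) and Ccl5 (-3.37 and -2.58), of which 56 of 60 UMIs in DPBS WT and 99 of 102 in Papain WT were in 1 cell. The unnamed Trdc and Tcrg-C4 class had 2 of 3 called in WT (5.6%), 2 of 2 in KO (5.3%), 1 of 2 for KO over WT in DPBS (6.95%) and 2 of 3 in papain (3.0%). With papain Ccl3 (-3.32) and Ccl4 (-2.604) were lower in WT and Ccl3 (3.33) and Ccl5 (1.596) higher in KO, and between genotypes Ccl3 was lower in KO in DPBS (-3.18) and Ccl3 (3.47) and Xcl1 (2.37) were higher in papain.

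B-like cells, the largest class, are not a known source of most members and served as the measure of free RNA. Ccl6 stood there at 24.7 CPM over the 4 libraries, 0.500% of its level in AM-like cells, Cxcl2 at 16.8 CPM, 0.152% of that in neutrophil-like cells, and Ccl5 at 10.0 CPM, 0.066% of that in NK-like cells. Shares of the highest class were larger for Ccl3 (20.1 CPM, 4.27%), Ccl4 (26.1 CPM, 2.24%), Ccl25 (44.6%) and Ccl27a (29.5%). Whether B-like cells make these members was not tested. A Ccl6 UMI was found in 13.7%, 14.1%, 11.1% and 8.49% of B-like cells, and in 3.55%, 3.46%, 2.43% and 1.65% after thinning, against 91.8% to 95.2% of thinned AM-like cells. For Cxcl2 the thinned shares were 1.4% to 1.94% of B-like and 89.3% to 95.2% of neutrophil-like cells. In B-like cells 1 of 12 members was called with papain in WT (2.63%), Cxcl10 (1.81 (0.73 to 3.04)), and 1 of 10 in KO (1.24%), Ccl6 (-1.09 (-1.39 to -0.79)). For KO over WT, 0 of 9 were called in DPBS (1.07%) and 0 of 12 in papain (1.66%).

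Of the other unnamed classes, the S100a8 and S100a9 class, with neutrophil and monocyte genes, had 3 of 9 members called in WT (3.7%), 2 of 7 in KO (2.35%), 2 of 8 for KO over WT in DPBS (3.48%) and 1 of 7 in papain (2.53%). Ccl4 (-1.72 in WT, -1.096 in KO) and Ccl3 (-1.49 and -1.61) were lower with papain in both genotypes, and Cxcl1 was lower in WT (-3.86). Between genotypes, Cxcl1 (-3.35) and Ccl5 (-1.58) were lower in KO in DPBS and Cxcl3 (-1.06) was lower in papain. The Rnase2a and Fbp1 class, 56, 107, 215 and 30 cells, differed broadly between libraries, with 5 of 11 members called in WT beside 14.3% of all genes, 2 of 3 in KO (26.5%), 2 of 4 for KO over WT in DPBS (9.42%) and 3 of 11 in papain (18.2%). In WT, Cxcl16 (3.498), Cxcl3 (3.07), Ccl9 (2.81) and Ccl5 (at least 1.63-fold) were higher and Ccl2 (-1.09) was lower. Ccl6, at 3189, 5062, 4936 and 885 CPM, and Cxcl2 were low in Papain KO, with papain ratios of -2.52 and -1.94 and genotype ratios of -2.48 and -2.41. Ccl9 was higher in KO in DPBS (1.88) and lower in papain (-1.38), and Ccl3 was lower in KO in DPBS (-1.24). In this class 7 of the 13 genes known to rise on tissue dissociation were called higher in Papain KO than in DPBS KO, and their part in these ratios was not tested. The Bcl11b and Gm2682 class had 0 of 1 member called in WT (4.22%), 1 of 1 in KO (6.45%), 1 of 2 for KO over WT in DPBS (5.2%) and 0 of 0 in papain (4.95%), each time Ccl5 (-4.54 with papain in KO and 3.76 for KO over WT).

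Dissociation can induce some of these ligands, Cxcl1 and Cxcl2 among them. Over all kept cells 0 of 13 dissociation genes were called in 3 of the 4 contrasts, and with papain in KO 1 was called, Hspa1b at 1.03. Their median log2 ratios in AM-like cells were -0.25, 0.18, -0.12 and 0.00 for papain in WT, papain in KO, KO over WT in DPBS and in papain, and 2 were called lower there for KO over WT in DPBS. In DC2-like cells 7 of the 13 were called lower with papain in WT (median -1.06) and 6 lower for KO over WT in DPBS (median -0.98). In DC1-like cells 4 and 5 were called lower in these contrasts (medians -0.90 and -0.56). Their part in the ligand ratios was not tested.

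The receptors of these ligands were read from a list of 23. Over all kept cells 8 of 21 tested were called higher with papain in WT (4.17% of all genes) and 0 lower (1.61%). The largest ratios were those of Ccr4 (2.50, from 84 to 466 UMIs) and Ccr8 (2.01, from 35 to 139 UMIs), the receptors of Ccl22 and Ccl1, with 52.1% and 42.4% of their UMIs in CD4 T-like cells. Ccr3 (1.78), Xcr1 (1.52), Cxcr6 (1.24), Ackr2 (1.14) and Cxcr2 (1.12) were among the others, Cxcr2 with 61.8% of its UMIs in neutrophil-like cells. With papain in KO 5 of 20 were higher (2.86%), among them Ccr4 (1.16) and Cxcr6 (1.02), and 1 was lower (2.73%), Cxcr1 (-2.18). In DPBS 2 of 20 were lower in KO (1.01%), Ccr10 (-1.26) and Ccr9 (-1.06), and 0 higher. After papain, Ccr4 (-1.37), Ccr8 (-1.09), Ccr3 (-1.01) and Cxcr1 (-1.78) were lower in KO than in WT (1.76%). Of their ligands, Ccl22 was called lower in KO over all cells there as well, but not with mean class shares (-0.21). Ccl1 over all cells, at -0.45 (-0.62 to -0.28), was not called. The receptor ratios were not weighted by class shares. The platelet ligand genes Pf4 and Ppbp, whose symbols the rule does not match, had 153 to 298 and 0 to 17 UMIs, and Pf4 was not called in any contrast.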

How the data were processed

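Live CD45.2+ lung cells of 4 groups were profiled as 4 droplet libraries, 1 per group, grouped by the genotype and treatment labels. The authors deposited counts of UMIs per gene and barcode, unnormalised and restricted to called cells; the submitters' processing notes name Cell Ranger and mm10, the matrix headers give software version 3.1.0, and the counting settings are not given in the sources used here.

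Kept barcodes had more than 200 genes and less than 15% of UMIs from mitochondria, the limits of a further single-cell experiment in the methods. Scrublet (scanpy 1.11.5, Python 3.11.15) ranked barcodes as doublets, and the highest were removed up to 0.8% per 1000 barcodes (585, 283, 570 and 275), because the caller's own threshold had not worked in Papain KO (0.0175% marked). Libraries were integrated and clustered in Seurat 5.3.0 (R 4.3.3; 2000 variable genes, 30 dimensions, Louvain resolution 0.8) without ligand, receptor or Ift20 genes, and 549 cells with DC and macrophage markers were clustered again (15 dimensions, resolution 0.5). A cluster was named from its markers where at least 3 were detected, its score reached 1 and the best class led by 0.6, and the scoring rules and the second clustering were set after clusters had been seen.

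UMIs were summed per class and library. CPM have exact Poisson intervals and ratios exact conditional binomial intervals at 95%, which cover counting error only. A fold against 0 UMIs is a lower bound from a floor of 3 counts in the library at 0 and leaves out the counting error of the other. There was 1 library per group, so no test between groups and no p-value was computed. Classes with at least 20 cells in each library were compared. Members with at least 100 UMIs were given in full, called members were named by the size of their ratio, up to 10 per contrast and class, and receptors that were called up to 10. The calls were run on simulated Poisson counts with known folds. Such counts follow the model of the intervals and hold no spread between cells or mice, so they check the calculation only. Some items of the receptor and motif lists are not reported here. The members and lists were chosen with earlier results of these data known. TMM factors came from edgeR 4.0.16 and entered only as an alternative. Further alternatives were other clusterings (without the second clusterings), no doublet removal, no barcode filter, shared barcodes left out, means over cells, mean class shares, and the richest cell left out. For means over cells and mean class shares, the interval of the summed counts was moved to the new ratio. Such calls therefore have no interval of their own.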

Additional observations from a re-analysis of the deposited data

Results flagged for a closer look

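For 7 pairs of a member with all kept cells or with a named class, the papain ratio in KO and that in WT were both called and lay on opposite sides of 0. The counting interval of each difference left out 0, but it takes the UMIs of a cell as independent. The difference, KO minus WT on the log2 scale with its 95% counting interval, was -3.63 (-4.09 to -3.16) for Cxcl9 over all kept cells and -5.71 (-6.997 to -4.43) for Cxcl9 in classical monocyte-like cells. It was -3.84 (-5.10 to -2.58) for Cxcl1 in classical monocyte-like cells and -4.47 (-4.98 to -3.95) for Ccl22 in conventional DC2-like cells. For Ccl9 in NK-like cells it was -5.55 (-7.30 to -3.80), for Ccl4 in neutrophil-like cells 2.91 (2.46 to 3.35), and for Ccl5 in conventional DC2-like cells 6.87 (5.56 to 8.19). In unnamed classes it was 5.35 (3.59 to 7.12) for Ccl3 in the Klra7 and Klrk1 class and 6.65 (4.23 to 9.06) for Ccl3 in the Trdc and Tcrg-C4 class. Differences between mice were not tested, since each group is 1 library. For Cxcl9 in classical monocyte-like cells, Ccl9 in NK-like cells and Ccl5 in DC2-like cells, 1 cell holds most of the UMIs in at least 1 of the libraries, as given above. Of Cxcl9 over all kept cells, 208 of 714 UMIs in Papain WT and 74 of 193 in DPBS KO lay in 1 cell each. Its lower call with papain in KO was lost with the richest cell left out, without doublet removal and with mean class shares. Ccl4 in neutrophil-like cells rested on 21 to 57 cells per library with a UMI.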

How the results depend on the processing

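No paired analysis was possible because each group holds 1 library. Over all kept cells, the 6 members called higher with papain in WT were 2 with class levels weighted by mean class shares, and 1 member was then called lower, Cxcl13. The count stayed at 6 with other members in it as a mean over cells (Ccl1 and Cxcl10 out, Cxcl3 and Cxcl13 in) and with the richest cell left out (Cxcl10 out, Cxcl13 in). With papain in KO the 2 called higher were 1 as a mean over cells, with mean class shares, without doublet removal and without a barcode filter, and the 4 called lower were 1 with mean class shares and 2 with the richest cell left out (Cxcl9 and Cxcl13 out) or without doublet removal (Ccl6 and Cxcl9 out). For KO over WT in DPBS, 0 higher became 1 as a mean over cells (Ccl12), and 0 lower became 1 (Cxcl1) with mean class shares, the richest cell left out, no barcode filter or shared barcodes left out. In papain 0 higher became 1 with mean class shares (Ccl7). Within named classes 146 calls became 94 with the richest cell of each library left out, 79 of them kept. Without doublet removal there were 182, with 112 of the 146 kept, and as means over cells 143, with 118 kept. Without integration 69 of 87 calls were kept. AM-like cells were the largest source of 10 or 11 members instead of 12 under other clusterings, and the largest source was the same for 14 of 22 members without integration and for 16 at resolution 1.2. Both other clusterings left out the second clusterings of T and myeloid cells, and the latter alone parts IM-like from DC2-like cells. The part of resolution or integration by itself was not tested. Under these clusterings the IM-like sources fell in an unnamed class led by Retnla and C1qa. Without integration those of Xcl1 and Ccl5 fell in one led by Trdc and Ctla2a. Directions turned with mean class shares for Ccl22 in WT (-0.0106) and Ccl7 in KO (-0.20). Without doublet removal, they turned for Ccl4 in CD4 T-like cells (KO over WT in DPBS, 1.19), Ccl5 in classical (papain, -0.0104) and nonclassical monocyte-like cells (DPBS, 0.29), Cxcl2 in NK-like cells (papain in WT, -0.25), Ccl2 (0.15) and the bound of Ccl5 (-0.46) in the Rnase2a and Fbp1 class (papain in WT), and Ccl3 and Ccl4 in the S100a8 and S100a9 class (papain in KO, 1.12 and 1.57). Without integration they turned for Ccl3 (papain in WT, -0.0816) and Ccl4 (DPBS, -0.65) in CD8 T-like cells, as means over cells for Ccl7 in DC2-like (DPBS, -0.13) and Cxcl10 in ILC2-like cells (DPBS, -0.20), and at resolution 1.2 for Ccl5 in gamma-delta T-like cells (papain, 4.92). Without the richest cell they turned for Ccl5 in gamma-delta T-like cells (DPBS 0.17, papain 0.34), Cxcl10 in ILC2-like cells (DPBS, -0.18), Cxcl13 in IM-like cells (papain in WT, 0.36), the bound of Ccl5 in the Rnase2a and Fbp1 class (papain in WT, -0.35), Cxcl2 in T-like cells without a CD4 or CD8 name (papain, -0.40) and Cxcl10 in the Klra7 and Klrk1 class (papain, -0.39). The cause was not tested. TMM factors (0.984 to 1.01 over all kept cells, 0.904 to 1.118 in the classes compared) turned no direction but ended the call of Ccl6 with papain in KO and 5 of the 146 calls within classes (141 kept). Under the other clusterings, both without the second clusterings, values could not be had for some classes. Without integration these were DC2-like, gamma-delta T-like, IM-like and undecided T-like cells. At resolution 1.2 they were DC2-like, IM-like and undecided T-like cells.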
